A study of Mus musculus with 22 samples.

Results

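The 10 transcription factors described here are Nanog, Klf2, Klf4, Klf5, Esrrb, Tfcp2l1, Tbx3, Zfp42, Nr0b1 and Prdm14. They were taken by name as factors that mark the naive state of mouse embryonic stem cells, with earlier results of these data known. They make up 10 of the 52535 gene symbols in each count table. All 10 were among the 16765 genes that passed the filter on low counts. RNA was sequenced from E14, a mouse embryonic stem cell line, in 4 genotypes with 3 libraries each. These were WT, E1-KO (without the enhancer E1), E2-KO (without the enhancer E2) and D-KO, which the labels do not spell out and which is read here as lacking both enhancers. The series asks how both enhancers act on the HoxB genes and on the first steps of differentiation. All 12 libraries share the same handling: cells grown with serum, LIF and the inhibitors PD0325901 (of MEK) and CHIR99021 (of GSK) lost LIF and both inhibitors and received 2 µM retinoic acid (RA) for 1 day. There is no library of undifferentiated cells among them, so each value is a level on the way out of the naive state. The sources used here do not say whether a genotype is a single clone. E1 and E2 are not genes, so the tables hold no row that reports their deletion.

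Naive pluripotency is the state of the preimplantation epiblast. In culture it is held by LIF, which acts through STAT3, and by inhibition of MEK and of GSK3. Klf4 and Tfcp2l1 are targets of LIF and STAT3, Tbx3 acts beside them, Esrrb and Tfcp2l1 respond to inhibition of GSK3 through release from the repressor Tcf7l1, and Klf2 and Nanog gain from inhibition of MEK. When these inputs are withdrawn the naive factors are normally lost within days, earlier than the general pluripotency factors Pou5f1 and Sox2, and RA hastens the exit.

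After 1 day of RA, RNA of 9 of the 10 factors was called higher (edgeR adjusted p below 0.05) in E1-KO than in WT. The same held for 9 in E2-KO and 6 in D-KO. Over all genes tested, 15.7%, 16.7% and 10.6% were called higher. With each deletion genotype fitted with the WT libraries alone, calls remained for 7, 5 and 4 factors, against 7.59%, 7.44% and 4.1% of all genes. Klf2, Klf4, Esrrb and Nr0b1 were higher in all 3 deletion genotypes, by 1.57-fold to 3.05-fold. Both ends of that range fell after correction for GC content and length, with the calls kept. On the log2 scale, Nr0b1 in D-KO went from 0.65 to 0.39 and Klf2 in E2-KO from 1.61 to 0.96. Levels in D-KO lay below those in E1-KO for 9 factors, against 7.52% of all genes called lower. For every factor D-KO stood below the product of both single effects, at 27.8% (Prdm14) to 57.4% (Tfcp2l1) of it. This interaction was called below 0 for all 10, against 17.1% of all genes. The call of Tfcp2l1 was lost when any library other than WT replicate 3 was left out. A difference from WT shared by all deletion lines would give such an interaction too. It cannot be told apart from a dependence of one deletion on the other. In RNA from whole cultures, fewer cells that express a factor and less RNA per cell cannot be told apart.

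The libraries held 9101547 to 13007735 counts. WT libraries differed from each other far more than the libraries of a deletion genotype did, with a median dispersion between replicates of 0.0935 in WT and 0.00615 in the deletion genotypes. The Spearman correlation of a gene's GC content with its level relative to the mean of all libraries was -0.564, 0.141 and -0.435 for WT replicates 1, 2 and 3. It was 0.249 to 0.435 among the libraries of the single deletions and -0.103 to -0.02 among those of D-KO. Mitochondrially encoded genes took 1.945% to 5.884% of WT counts, 2.526% to 2.686% of D-KO counts, 1.632% to 1.808% of E2-KO counts and 1.355% to 1.479% of E1-KO counts. These quantities moved with the genotypes in much the order of the factors. For each factor the changes against WT after correction for GC content and length are given beside the result, and the part of the mitochondrial share was not tested. The Y-linked genes Ddx3y and Eif2s3y held 1674 and 801 counts over the WT libraries and 0 in all 9 deletion libraries. A difference in the history of the deletion lines and the effect of the deletions cannot be told apart in any comparison with WT.

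Of the 10 factors, 7 were matched in the RefSeq promoter table for GRCm38.p6, with 9 windows of the 250 bases before a start of the gene. The windows shown are those of the 4 factors in which a searched motif was found, chosen after the search, and 1 of the 2 windows of Nanog is given. The windows of Klf2, Klf4 and Esrrb, 4 in all, held no match to any motif and are not printed. Motifs searched on both strands were TTTGCAT, the core of the octamer bound by POU factors such as Pou5f1, GGGNGTGG, a box bound by KLF factors, and AGGTCA, the half-site of nuclear receptors, together with its extension AAGGTCA, which is the preferred site of Esrrb and contains the shorter one. Capitals mark matches on either strand, so that TGACCT and CCACNCCC are matches on the opposite strand. The windows are chr6:122707239-122707488 (plus strand) for Nanog, chr8:43307010-43307259 (minus strand) for Zfp42, chrX:86191525-86191774 (plus strand) for Nr0b1 and chr1:118627695-118627944 (plus strand) for Tfcp2l1.
Nanog: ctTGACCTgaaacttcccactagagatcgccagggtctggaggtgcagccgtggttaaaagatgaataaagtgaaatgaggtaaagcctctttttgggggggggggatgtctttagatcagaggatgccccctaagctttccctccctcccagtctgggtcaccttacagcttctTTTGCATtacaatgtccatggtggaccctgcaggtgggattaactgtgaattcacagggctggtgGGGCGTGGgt
Zfp42: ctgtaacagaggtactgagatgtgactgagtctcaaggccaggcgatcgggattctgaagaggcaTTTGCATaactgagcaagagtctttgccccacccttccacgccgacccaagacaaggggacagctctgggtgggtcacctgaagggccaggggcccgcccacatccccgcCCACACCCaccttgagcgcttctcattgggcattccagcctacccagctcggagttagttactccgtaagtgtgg
Nr0b1: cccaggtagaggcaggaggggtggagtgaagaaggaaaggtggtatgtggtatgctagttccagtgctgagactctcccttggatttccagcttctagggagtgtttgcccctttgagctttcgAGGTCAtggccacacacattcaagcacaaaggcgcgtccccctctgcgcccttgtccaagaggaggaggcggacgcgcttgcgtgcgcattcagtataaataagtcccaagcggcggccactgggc
Tfcp2l1: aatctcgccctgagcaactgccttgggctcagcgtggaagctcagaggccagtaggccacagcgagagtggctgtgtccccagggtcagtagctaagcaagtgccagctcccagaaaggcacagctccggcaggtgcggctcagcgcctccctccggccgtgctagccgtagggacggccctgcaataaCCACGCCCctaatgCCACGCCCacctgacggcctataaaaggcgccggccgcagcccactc
TTTGCAT lay 75 to 69 bases before the start of Nanog and 185 to 179 bases before that of Zfp42, and occurred in 4.12% of the 32851 RefSeq promoter windows of the same length. Over the 7 matched factors, TTTGCAT thus occurred for 2. A factor counts here if any of its windows held a match, and Nanog and Esrrb had 2 windows each. The shares are of single windows, so a count of factors and its share differ in unit. GGGNGTGG occurred for 3, Nanog, Zfp42 and, at 2 places, Tfcp2l1, against 15.9% of all windows. AGGTCA occurred for 2, Nanog and Nr0b1, against 14% of all windows, and AAGGTCA in none of the 9 windows, against 4.08%. A match describes the letters of a window and is not evidence of binding.

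**Figure D1:**
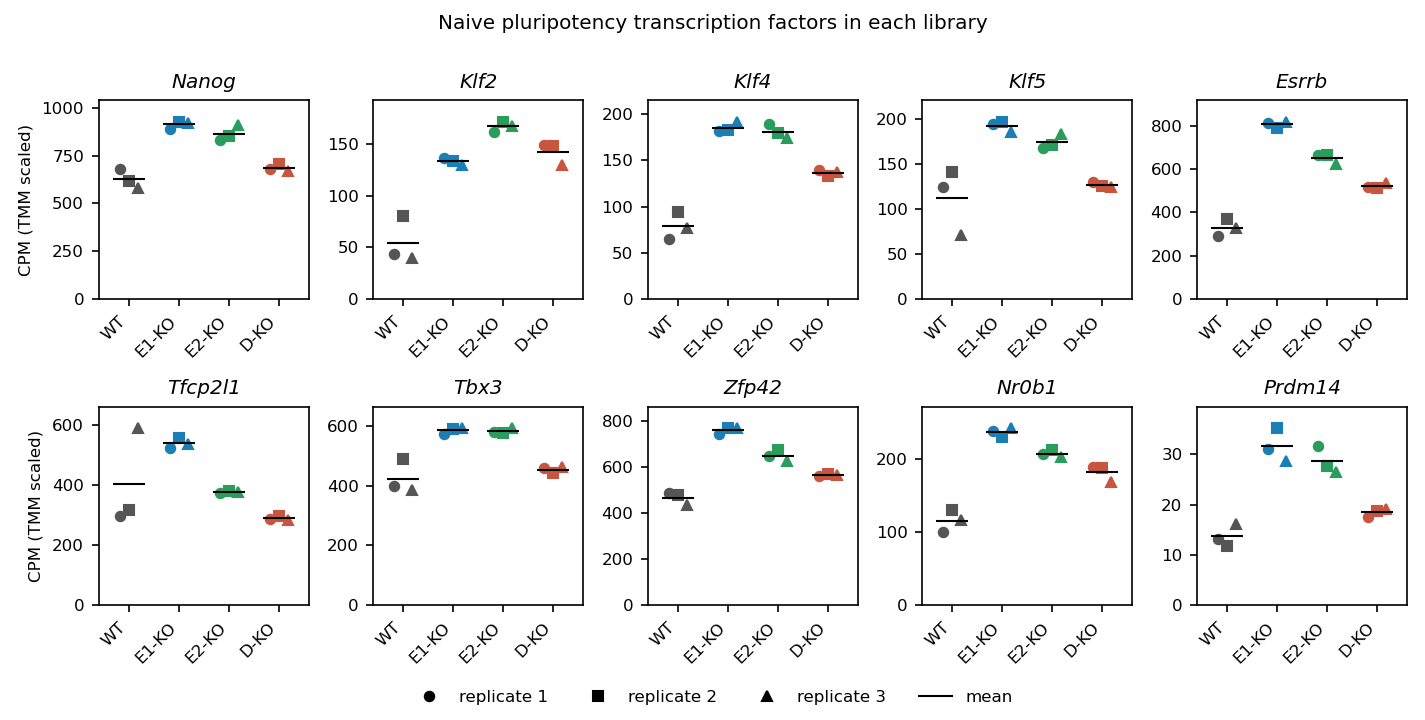
Level of each factor in each of the 12 libraries, in CPM (read count relative to the TMM-scaled size of its library), by genotype; each point is a library, its shape the replicate number and the line the mean of 3. WT points are spread widely for Klf2, Klf5 and Tfcp2l1. All WT points lie below all E1-KO points for 9 factors, all but Tfcp2l1 (21% of all genes). All D-KO points lie below all E1-KO points for 9 factors, all but Klf2 (27.1% of all genes).

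The Krüppel-like factors Klf2, Klf4 and Klf5 are zinc-finger activators that overlap in their targets and can stand in for each other in self-renewal. Klf2 (chromosome 8, 72319033 to 72321656, 3 exons) is the factor most closely tied to MEK inhibition. WT libraries held 43.2, 80.9 and 39.8 CPM (counts relative to TMM-scaled library size). E1-KO libraries held 137, 134 and 130, E2-KO libraries 162, 172 and 168, and D-KO libraries 149, 148 and 130. The lowest library of each deletion genotype lay above the highest WT library. Against WT, Klf2 rose on the log2 scale by 1.28 ± 0.20 (SE) with E1 deleted, 1.61 ± 0.20 with E2 deleted and 1.37 ± 0.20 for D-KO, with edgeR adjusted p of 0.000291, 5.24e-05 and 0.000272. Klf2 has the highest GC content of the 10 transcripts (61.6%), and after correction for trends over GC content and length its changes were 0.72, 0.96 and 0.97, all still called. With WT replicate 2 as the only WT library they were 0.74, 1.05 and 0.81, given as values alone, since that fit takes its spread from the deletion genotypes and assumes that WT varies as little as they do.

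Klf4 (chromosome 4, 55527143 to 55532466, minus strand), which with Oct4, Sox2 and Myc reprograms fibroblasts, stood at 64.5, 94.3 and 77.1 CPM in WT. E1-KO held 182, 183 and 192, E2-KO held 189, 180 and 174, and D-KO held 140, 133 and 137. The 3 groups of E1-KO and E2-KO, D-KO and WT did not overlap, with D-KO between the others. Klf4 rose by 1.24 ± 0.12 and 1.20 ± 0.12 in the single deletions, and by 0.80 ± 0.12 in D-KO (edgeR adjusted p = 6.32e-06, 9.64e-06 and 0.000383). After correction for GC content and length these were 0.97, 0.88 and 0.61, all called.

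Klf5 (chromosome 14, 99298691 to 99315036), which in the embryo also acts in the trophectoderm, stood at 124, 141 and 71.1 CPM in WT, with replicate 3 well below the others. E1-KO (194, 197 and 186) and E2-KO (168, 171 and 183) lay above all WT libraries, and D-KO (130, 126 and 124) lay within the WT range. Klf5 rose by 0.78 ± 0.18 in E1-KO (edgeR adjusted p = 0.0044) and 0.63 ± 0.18 in E2-KO (adjusted p = 0.0139). Without WT replicate 3 these values were 0.54 and 0.39, both still called. The difference of D-KO from WT was 0.17 ± 0.18 (edgeR adjusted p = 0.512), and -0.07 without WT replicate 3. The correction for GC content and length gave 0.84 and 0.70 for the single deletions, both called, and 0.23 for D-KO.

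Esrrb and Nr0b1 are orphan nuclear receptors. Esrrb (chromosome 12, 86361117 to 86521628) is an activator that binds many of the sites of Nanog and Pou5f1, and Nr0b1 (chromosome X, 86191764 to 86195947, 2 exons), also called Dax1, lacks the usual DNA-binding domain and acts mainly as a corepressor. For Esrrb, WT held 290, 369 and 330 CPM, E1-KO 814, 791 and 820, E2-KO 664, 665 and 624, and D-KO 516, 514 and 537. The 4 genotypes did not overlap in any library, in the order E1-KO, E2-KO, D-KO and WT. Esrrb rose by 1.29 ± 0.10, 0.98 ± 0.10 and 0.66 ± 0.10 in E1-KO, E2-KO and D-KO (edgeR adjusted p = 1.21e-06, 1.29e-05 and 0.000451), and by 1.03, 0.73 and 0.55 after correction for GC content and length, all called. Nr0b1 had the same order, again with no overlap, with WT at 101, 130 and 117 CPM, E1-KO at 239, 231 and 243, E2-KO at 208, 213 and 203, and D-KO at 190, 188 and 169. It rose by 1.04 ± 0.11, 0.84 ± 0.11 and 0.65 ± 0.11 (edgeR adjusted p = 9.14e-06, 6.33e-05 and 0.000707). After correction for GC content and length these were 0.69, 0.43 and 0.39 for Nr0b1, all still called.

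Nanog (chromosome 6, 122707489 to 122714633), the homeobox factor that can sustain self-renewal without LIF, had the highest level per length of the 10. WT held 678, 617 and 583 CPM, E1-KO 891, 928 and 923, E2-KO 834, 855 and 908, and D-KO 681, 704 and 671. E1-KO and E2-KO lay above all WT libraries, and D-KO overlapped WT. Nanog rose by 0.55 ± 0.10 in E1-KO and 0.47 ± 0.10 in E2-KO (edgeR adjusted p = 0.000773 and 0.00233), and differed by 0.13 ± 0.10 in D-KO (adjusted p = 0.351). Corrected for GC content and length, the values were 0.70 and 0.55, both called, and 0.16. Its pseudogenes Nanog-ps1 and Nanog-ps2 held at most 3 and 0 counts in a library.

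Zfp42 (chromosome 8, 43295063 to 43306980, minus strand), also called Rex1, is a zinc-finger protein widely used as a reporter of the naive state. WT libraries stood at 485, 478 and 435 CPM, E1-KO at 742, 768 and 766, E2-KO at 648, 671 and 624, and D-KO at 562, 570 and 563, with no overlap between any 2 genotypes. Zfp42 rose by 0.70 ± 0.09, 0.48 ± 0.09 and 0.28 ± 0.09 in E1-KO, E2-KO and D-KO (edgeR adjusted p = 6.91e-05, 0.00153 and 0.0422), and by 0.81, 0.51 and 0.27 after the correction for GC content and length, all called. The call in D-KO was lost without any of the D-KO libraries.

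Prdm14 (chromosome 1, 13113457 to 13127163, minus strand), a repressor that keeps FGF receptor signalling and de novo DNA methylation low, was the least abundant factor, with 127 to 379 counts a library. WT libraries held 13.1, 11.8 and 16.2 CPM, E1-KO 31.1, 35.2 and 28.6, E2-KO 31.6, 27.7 and 26.4, and D-KO 17.5, 18.7 and 19.1. All deletion libraries lay above WT, and D-KO lay below both single deletions. Prdm14 rose by 1.22 ± 0.15, 1.07 ± 0.15 and 0.44 ± 0.15 with E1, E2 and both deleted (edgeR adjusted p = 3.07e-05, 0.000107 and 0.0458). The D-KO call was lost without WT replicate 1, WT replicate 2 or any D-KO library, and in the fit corrected for GC content and length (0.36, adjusted p = 0.0947), where the single deletions kept theirs at 1.15 and 0.95.

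Tbx3 (chromosome 5, 119670669 to 119684724), a T-box factor downstream of PI3K signalling, stood at 400, 488 and 384 CPM in WT. E1-KO (574, 588 and 592) and E2-KO (581, 575 and 593) overlapped each other and lay above WT, and D-KO (459, 441 and 462) lay within the WT range. Tbx3 rose by 0.46 ± 0.10 in each single deletion (edgeR adjusted p = 0.00398 and 0.00431) and differed by 0.10 ± 0.10 in D-KO (adjusted p = 0.534). After correction for GC content and length the changes of the single deletions were 0.24 and 0.26, both still called, and that of D-KO was 0.02. With WT replicate 2 as the only WT library the single deletions stood at 0.27 and 0.26, values whose call uses no spread between WT libraries. Tbx3 shares 115 of its exon bases (1.74%) with the antisense gene Tbx3os1, which held 153 to 272 counts a library. The sources used here do not give the strand setting of the counting. Reads of both genes in that stretch cannot be told apart.

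Tfcp2l1 (chromosome 1, 118627945 to 118685168, 16 exons), a grainyhead-family activator and a main target of LIF and STAT3, was the exception. It stood at 298, 317 and 589 CPM in WT, with replicate 3 at 1.98 times replicate 1 and above every deletion library. E1-KO held 523, 555 and 537, E2-KO 373, 378 and 377, and D-KO 287, 298 and 283, below every WT library (16.2% of all genes were lower in all D-KO libraries). The differences from WT of 0.42 ± 0.19, -0.09 ± 0.19 and -0.47 ± 0.19 did not pass the threshold (edgeR adjusted p = 0.101, 0.732 and 0.092). Without WT replicate 3, Tfcp2l1 was 0.81 higher in E1-KO and 0.28 higher in E2-KO, both called, and the difference in D-KO was -0.10. Without WT replicate 1 or WT replicate 2 the D-KO difference was called, at -0.65 and -0.61. With all WT libraries kept, the E1-KO difference was called with library totals as the only scaling (0.56, adjusted p = 0.0191), without the filter on low counts (0.44, 0.00535), with limma voom weights (0.66, 4.7e-05) and after correction for GC content and length (0.63, 0.00399). The same correction gave 0.17 in E2-KO and -0.26 in D-KO, neither called, and the D-KO difference was called without the filter (-0.45, adjusted p = 0.00649). The calls of Tfcp2l1 against WT thus changed with the WT library left out, the scaling, the filter, the tool and the GC correction.

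**Figure D2:**
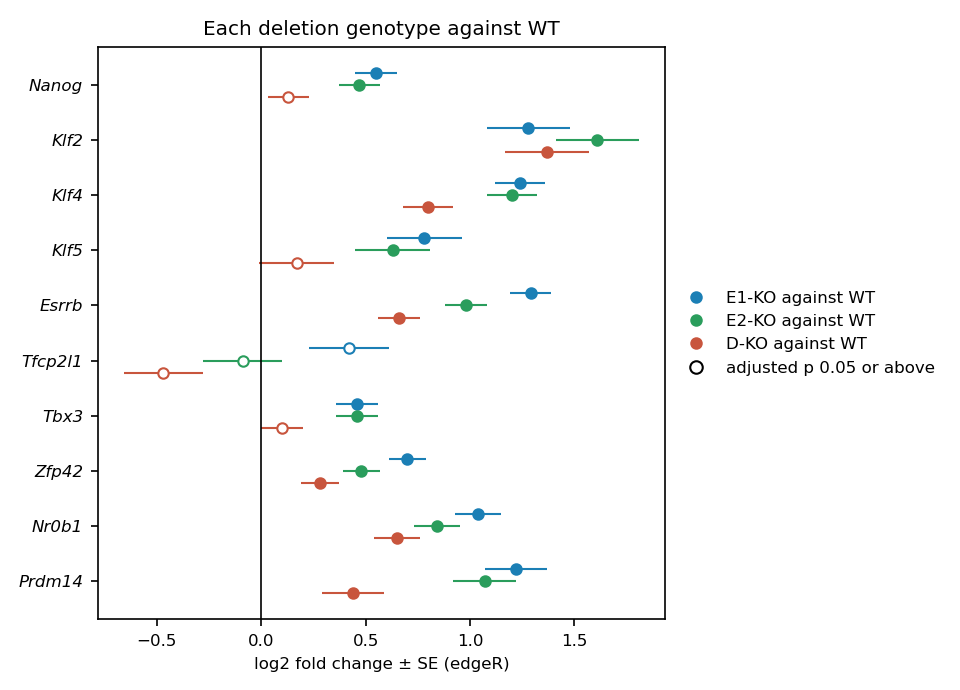
Log2 fold change of each factor against WT in E1-KO, E2-KO and D-KO, from edgeR; bars are ± SE, and open symbols have an adjusted p of 0.05 or above. Tfcp2l1 is open in all 3 comparisons, Nanog, Klf5 and Tbx3 are open in D-KO alone, and all 3 comparisons share the same WT libraries.

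Over all genes tested, 15.7% were called higher in E1-KO than in WT, 16.7% in E2-KO and 10.6% in D-KO, against 9, 9 and 6 of the 10 factors. None of the 10 was called lower, against 18.5%, 18.6% and 12.2% of all genes. The median log2 difference of the factors was 0.91, 0.74 and 0.36, and that of all genes -0.01, 0.0041 and -0.02. In 9 of 10 factors all E1-KO libraries lay above all WT libraries (21% of all genes did), as in 9 of 10 for E2-KO (21.2%) and 6 of 10 for D-KO (16.6%). The 3 comparisons share the WT libraries, so their counts are not independent. The factors were chosen with earlier results of these data known, so these shares describe the list and do not test it. Since the shared estimate of spread understates that of WT, each deletion genotype was also fitted with the WT libraries alone. Calls then remained for 7, 5 and 4 factors, against 7.59%, 7.44% and 4.1% of all genes called higher. Klf5 (adjusted p = 0.0546) and Tbx3 (0.0726) lost the call in E1-KO, Nanog (0.0716), Klf5 (0.0995), Tbx3 (0.0819) and Zfp42 (0.0609) lost it in E2-KO, and Zfp42 (0.25) and Prdm14 (0.193) lost it in D-KO. Klf2, Klf4, Esrrb and Nr0b1 kept their calls in all 3 genotypes under all 16 other settings of each comparison.

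The deletion genotypes were then compared with each other, which does not involve the WT libraries except through the shared estimate of spread. D-KO was lower than E1-KO for 9 of the 10 factors, against 7.52% of all genes called lower. The same 9 had all D-KO libraries below all E1-KO libraries (27.1% of all genes), and were called when only these 6 libraries were fitted (25% of all genes called lower). The falls ran from 0.37 ± 0.10 (Tbx3, 1.29-fold) to 0.90 ± 0.19 (Tfcp2l1, 1.86-fold) on the log2 scale. Tfcp2l1 fell from 538 ± 16.2 (SD, n = 3) to 289 ± 7.45 CPM (edgeR adjusted p = 0.00769), Prdm14 from 31.7 ± 3.34 to 18.4 ± 0.854 CPM (adjusted p = 0.00282), and Esrrb from 808 ± 15.2 to 523 ± 12.9 CPM (adjusted p = 0.00139). Klf2 was the exception at 142 ± 10.5 CPM in D-KO and 134 ± 3.74 in E1-KO, with overlapping libraries and a difference of 0.09 ± 0.19 (adjusted p = 0.79). After correction for GC content and length Klf2 was 0.25 higher in D-KO than in E1-KO (adjusted p = 0.0319). The other 9 were still called lower in that fit, with Tbx3 at -0.22 (edgeR adjusted p = 0.0466). With the replicate number added to the corrected fit, 7 factors were called lower and 1 higher, and Tbx3 lost its call (edgeR adjusted p = 0.0745). Of all genes, these fits called 3641 and 3308 in either direction. Leaving out any single library of either genotype ended the calls of Klf4, Klf5, Tbx3 and Nr0b1, and 4 of these 6 omissions ended that of Nanog, while Esrrb, Tfcp2l1, Zfp42 and Prdm14 kept theirs.

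Against E2-KO, all 10 factors were lower in D-KO in every library, against 23% of all genes, but the differences were smaller, from -0.19 (Nr0b1) to -0.63 (Prdm14). Prdm14 alone passed the threshold in the fit of all 12 libraries (28.6 ± 2.72 against 18.4 ± 0.854 CPM, edgeR adjusted p = 0.0228), against 2.64% of all genes called lower, and that call was lost without any single library of either genotype. When only the E2-KO and D-KO libraries were fitted, whose own spread is small, all 10 were called lower, against 18.3% of all genes. The values were then -0.34 for Nanog, -0.23 for Klf2, -0.40 for Klf4, -0.46 for Klf5, -0.32 for Esrrb and -0.38 for Tfcp2l1. After correction for GC content and length in the fit of all libraries, Klf2 stood at 0.01 against E2-KO and the other 9 remained below 0, with Nr0b1 nearest at -0.05.

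No factor was called between E1-KO and E2-KO in the fit of all 12 libraries or by DESeq2, against 0.596% of all genes called by edgeR and 1.58% by DESeq2. Unadjusted edgeR p-values were under 0.05 for 3 factors, Esrrb, Tfcp2l1 and Zfp42. Esrrb stood at 808 ± 15.2 CPM in E1-KO and 651 ± 23.5 in E2-KO, Tfcp2l1 at 538 ± 16.2 and 376 ± 2.37, Zfp42 at 759 ± 14.3 and 648 ± 23.5. Without overlap, Klf5, Esrrb, Tfcp2l1, Zfp42 and Nr0b1 were higher in every E1-KO library (15.7% of all genes), and Klf2 was lower (19%). With only the E1-KO and E2-KO libraries fitted, Klf5, Esrrb, Tfcp2l1, Zfp42 and Nr0b1 were called higher in E1-KO, against 10.8% of all genes, and Klf2 lower, against 10.6%. The largest of these differences were 0.53 for Tfcp2l1, 0.33 for Esrrb and -0.31 for Klf2. Nanog, Klf4, Tbx3 and Prdm14 overlapped between the single deletions.

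**Figure D3:**
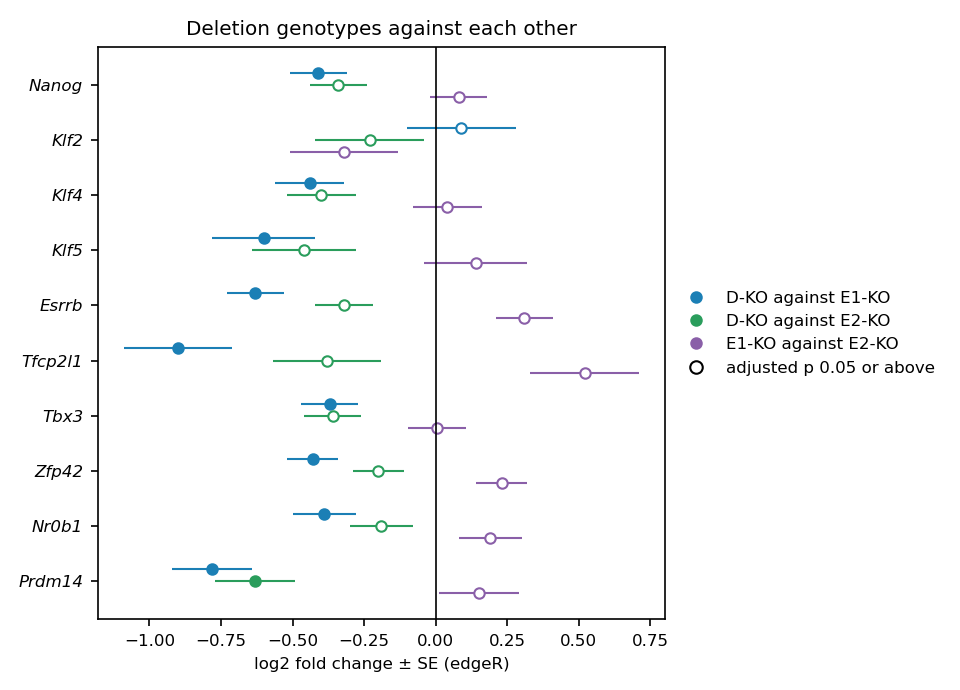
Log2 fold change of each factor between deletion genotypes, from the edgeR fit of all 12 libraries; bars are ± SE, and open symbols have an adjusted p of 0.05 or above. The values of D-KO against E1-KO lie from -0.90 to -0.37 except for Klf2 at 0.09, and those of D-KO against E2-KO are all below 0.

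Whether the deletions combine was tested with the interaction, the log2 difference between D-KO and the sum of both single effects. It was below 0 and called for all 10 factors, against 17.1% of all genes called below 0 and 18.1% called above, 35.2% together. Its median was -1.23 for the factors and -0.01 for all genes. An interaction below 0 was not particular to the factors. Of the 6 general pluripotency factors, 5 were called below 0 and 1 above (median -0.84). Of 10 tested trophectoderm markers, 7 were called below 0 and 0 above (median -1.86). The other way went 15 primitive endoderm markers (11 above, 2 below), 10 formative and primed epiblast genes (7 and 0) and 8 tested 2-cell-like markers (8 and 0). Interactions were -1.85 ± 0.20 for Prdm14, -1.64 ± 0.17 for Klf4, -1.61 ± 0.15 for Esrrb and -1.52 ± 0.28 for Klf2, with edgeR adjusted p of 1.98e-05, 1.24e-05, 4.32e-06 and 0.00109. In levels, the product of both single effects would put Esrrb at 1597 CPM, Klf4 at 428 CPM and Prdm14 at 66.2 CPM, where D-KO stood at 523, 137 and 18.4 CPM. Klf5 (-1.24 ± 0.25) and Nr0b1 (-1.23 ± 0.15) were intermediate. Zfp42 (-0.90 ± 0.13), Nanog (-0.88 ± 0.14), Tbx3 (-0.82 ± 0.15) and Tfcp2l1 (-0.80 ± 0.27, edgeR adjusted p = 0.0341) were nearest to 0.

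The WT level enters the interaction as it enters each comparison with WT, so the 3 results are not independent. A difference from WT that all deletion lines share, whatever its source, enters both single effects and D-KO once each, and so gives by itself an interaction of the opposite sign. The lines differ from WT in such a way in the Y-linked genes, and for the factors such a shared difference and a dependence of one deletion on the other cannot be told apart. The 9 interactions other than that of Tfcp2l1 kept their call in all 21 other settings, while Tfcp2l1 lost its call when any library other than WT replicate 3 was left out. After correction for GC content and length the interaction was -0.71 for Klf2, -0.49 for Tbx3 and -0.73 for Nr0b1, and stayed called. Scaling by library totals alone moved the median of all genes to -0.18 and that of the factors to -1.39.

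**Figure D4:**
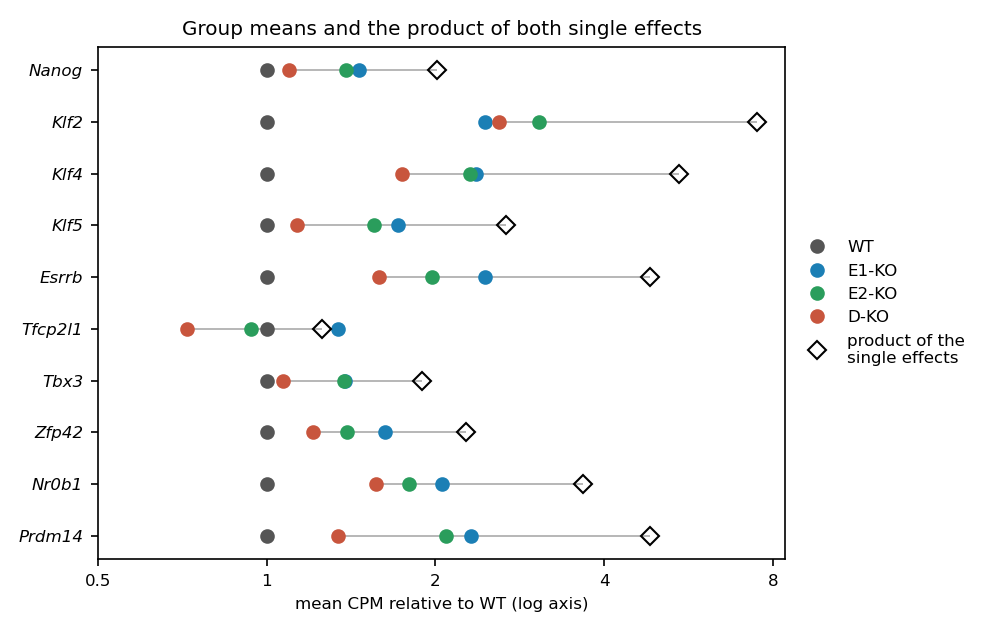
Mean CPM of each factor in each genotype relative to WT, on a log axis, with the product of both single effects as an open diamond. A line joins D-KO to that product, and every D-KO point lies to its left, at 27.8% to 57.4% of the product.

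**Figure D5:**
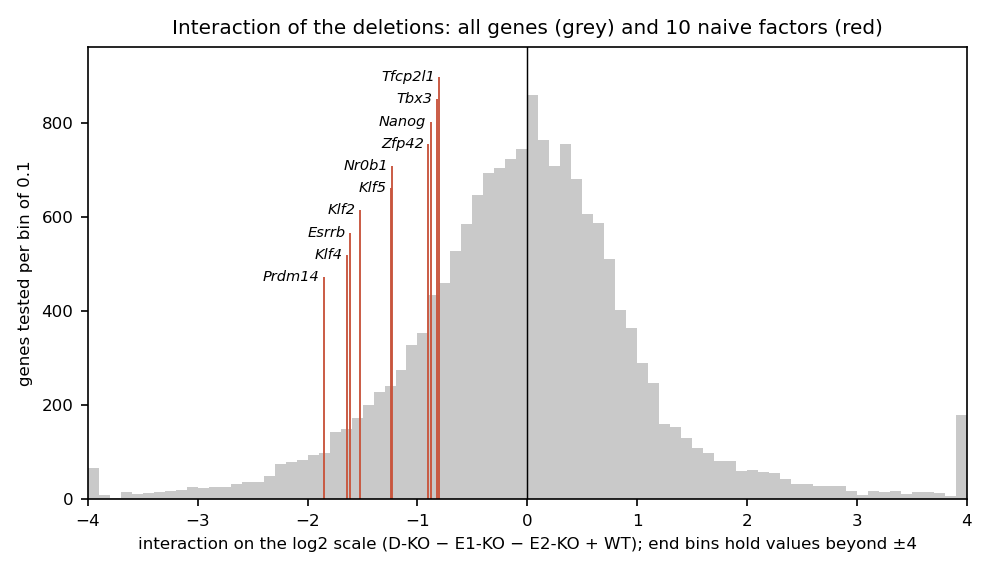
Interaction of both deletions on the log2 scale for the 16765 genes tested (grey bars, genes per bin of 0.1) and for the 10 factors (red lines). The factors lie from -1.85 to -0.80, while the median of all genes is -0.01.

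Levels of different genes were compared per kilobase of exon. In WT they ran from 279 CPM per kb for Nanog and 248 for Zfp42, through 64.2 for Nr0b1, 64 for Tbx3 and 54.5 for Esrrb, to 21.5 for Klf5 and 5.33 for Prdm14. In E1-KO Nanog and Zfp42 again led, at 408 and 403 CPM per kb, followed by Esrrb at 134 and Nr0b1 at 132. Summed over the 10 factors, WT libraries held 2496 to 2727 CPM, E1-KO 4327 to 4418, E2-KO 3859 to 3908 and D-KO 3096 to 3140. The same order of E1-KO, E2-KO, D-KO and WT held for the means of 8 factors, all but Klf2 and Tfcp2l1. Among these 8, the libraries of E1-KO and E2-KO overlapped for Nanog, Klf4, Tbx3 and Prdm14, and those of D-KO and WT overlapped for Nanog, Klf5 and Tbx3. Klf2 was highest in E2-KO, and Tfcp2l1 lowest in D-KO.

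Beside the 10 naive factors, other parts of the pluripotency network were read from the same fit. Every count of genes called against WT below is to be read beside the shares of all genes, which were 15.7%, 16.7% and 10.6% called higher and 18.5%, 18.6% and 12.2% called lower in E1-KO, E2-KO and D-KO, and beside medians of -0.01, 0.0041 and -0.02. The general pluripotency factors (6 genes) had 5, 5 and 4 members called higher than WT with E1, E2 and both deleted, and 1 (Lin28a, named after its values were seen), 0 and 0 called lower. Sox2, the partner of Oct4, rose from 143 ± 53.6 CPM in WT to 335 ± 15.3 in E1-KO and 321 ± 22.6 in E2-KO (edgeR adjusted p = 0.000396 and 0.000624). Utf1, a chromatin-bound factor of pluripotent cells, rose from 123 ± 67.5 CPM in WT to 343 ± 8.12 in D-KO, its highest level (adjusted p = 0.00115). Between D-KO and E1-KO, 1 of these 6 was called higher and 0 lower by edgeR. Of all 16765 genes, 2674 were called in that comparison. Called lower were 7.52% of all genes, so 0 of 6 is near that share. The median log2 difference of the 6 was 0.03, where that of the naive factors was -0.43 and that of all genes -0.01. That difference between the lists was not tested.

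Of 14 tested genes that mark the naive state without being among the 10 factors, 4, 4 and 3 were called higher than WT in the genotypes E1-KO, E2-KO and D-KO, and 3, 2 and 1 lower. Mybl2, a cell-cycle transcription factor, rose from 604 ± 119 CPM in WT to 1320 ± 21.8 in E1-KO and 1206 ± 13.4 in E2-KO. Tdh, the threonine dehydrogenase of mouse stem cells, rose in all 3 genotypes, from 63.8 ± 18.1 CPM in WT to 169 ± 7.9, 160 ± 8.59 and 177 ± 11. Tet2, a DNA demethylation enzyme, fell in D-KO from 450 ± 113 to 241 ± 6.02 CPM (edgeR adjusted p = 0.000493). The median log2 difference of the 14 genes was 0.17, 0.19 and 0.18.

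Of 8 genes of LIF and STAT3 signalling, 3, 3 and 3 were called higher and 1, 2 and 1 lower, in the same order of genotypes (medians 0.25, 0.09 and 0.46). Lifr, the LIF receptor subunit, rose by 0.53 ± 0.15 in E1-KO and 0.49 ± 0.15 in D-KO, while Il6st (gp130), the shared receptor subunit, fell by 0.59 ± 0.19 in E1-KO and by 0.74 ± 0.19 in E2-KO. Pim3, a kinase gene induced by STAT3, rose by 0.73 ± 0.20, 0.77 ± 0.20 and 0.60 ± 0.20. Of 16 regulators of the exit from the naive state, 5, 5 and 6 were called higher (15.7%, 16.7% and 10.6% of all genes) and 1, 2 and 0 lower (18.5%, 18.6% and 12.2%), with medians of 0.12, 0.17 and 0.21. Tcf7l1, the repressor of Esrrb and Tfcp2l1, rose too, from 102 ± 14.4 CPM in WT to 181 ± 2.56, 178 ± 5.91 and 184 ± 2.75. Foxd3, a repressor needed for the exit, stood at 12.1 ± 7.44 CPM in WT and 86.1 ± 2.35, 67.1 ± 1.67 and 39.5 ± 5.84 CPM in the same genotypes, and rose by 2.79 ± 0.29, 2.43 ± 0.28 and 1.67 ± 0.28 (edgeR adjusted p = 1.11e-05, 3.96e-05 and 0.000991).

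Among 12 tested cofactors and partners, 4, 1 and 2 were called higher (15.7%, 16.7% and 10.6% of all genes) and 2, 2 and 0 lower (18.5%, 18.6% and 12.2%), with medians of 0.02, 0.02 and 0.05, close to those of all genes. Zfp296, a zinc-finger partner of Klf4, rose by 1.14 ± 0.15, 1.17 ± 0.15 and 1.31 ± 0.15. Of 21 tested paralogs of the factors, 8, 8 and 5 were called higher and 4, 3 and 2 lower, beside the same shares of all genes, with medians of 0.17, 0.20 and 0.18. Klf9 rose by 0.68 ± 0.09, 0.58 ± 0.09 and 0.38 ± 0.09, and Klf11 by 0.84 ± 0.11, 0.90 ± 0.11 and 0.40 ± 0.11. Klf8 fell by 0.88 ± 0.13, by 0.91 ± 0.13 and by 0.56 ± 0.13. A further list held 6 genes repressed by Prdm14 or held low by the MEK and GSK inhibitors. Of these, 2, 1 and 3 were called higher and 2, 2 and 0 lower, beside the same shares of all genes. Their medians were -0.05, 0.16 and 0.19. Fgfr2 fell from 18.8 ± 0.532 CPM in WT to 4.86 ± 1.52 in E1-KO and 9.35 ± 1.37 in E2-KO (edgeR adjusted p = 1.26e-05 and 0.0018). Dnmt3a fell by 0.80 ± 0.16 and by 0.51 ± 0.16 in the single deletions. Dnmt3b rose in all 3 genotypes, to 301 ± 6.82 CPM in D-KO from 151 ± 15.8 in WT. Dnmt3l (0.54 ± 0.10) and Uhrf1 (0.35 ± 0.10) were the other genes of this list called higher in D-KO.

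Markers of the cell types next to the naive state moved too, and are given as measured beside the factors. Of 10 formative and primed epiblast genes, 6, 5 and 3 were called lower and 1, 1 and 2 higher, and their summed level was 256 to 306 CPM for WT, 256 to 262 for E1-KO, 288 to 293 for E2-KO and 395 to 404 for D-KO. Dnmt3b carried that sum, with means of 151, 204, 219 and 301 CPM, and the other 9 genes summed to 108 to 161 CPM for WT, 53.3 to 59.8 for E1-KO, 69.4 to 71.5 for E2-KO and 95.7 to 102 for D-KO, below WT in all deletion genotypes. Sox3 stood at 13.3 to 46.3 CPM in WT and at 3.38 ± 0.475, 6.59 ± 0.805 and 10.7 ± 0.562 CPM in the deletion genotypes. The median log2 difference of the 10 genes was -1.46, -0.81 and -0.03, so that in D-KO it lay near that of all genes. Called lower in D-KO were Sox3, Sall2 and Cdh2, and called higher were Dnmt3b and Otx2 (1.34 CPM in WT, 3.23 in D-KO). Of 15 primitive endoderm markers, 11, 11 and 10 were called lower, and 2, 2 and 1 higher. Gata6, which specifies that lineage and opposes Nanog, fell from 70.6 ± 1.87 CPM in WT to 16.2 ± 1.18, 36.6 ± 1.61 and 46.2 ± 1.4 CPM, the reverse of the order of Esrrb. Summed primitive endoderm markers were 684 to 750 CPM for WT, 431 to 451 for E1-KO, 546 to 571 for E2-KO and 542 to 560 for D-KO. Sparc had the highest level among them, with means of 206, 248, 263 and 244 CPM. The other 14 summed to 491 to 527 CPM for WT, 190 to 199 for E1-KO, 295 to 298 for E2-KO and 302 to 312 for D-KO.

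Of 8 tested 2-cell-like markers, 8, 8 and 7 were called lower, with sums of 143 to 291 CPM for WT, 15 to 17.4 for E1-KO, 15.2 to 21.9 for E2-KO and 50.8 to 52.3 for D-KO. Of 10 tested trophectoderm markers, 7, 7 and 4 were called higher and 0, 0 and 2 lower. Tead4 was among those higher (WT 19.8 ± 1.22 CPM, E1-KO 50.6 ± 3.54 CPM). Those called lower in D-KO were Eomes (-0.84 ± 0.18) and Gata3 (-0.96 ± 0.27), which also stood below WT in the single deletions, not called. Cdx2 stood below WT in all deletion genotypes (-0.99, -1.38 and -0.79), not called. The trophectoderm markers summed to 117 to 123 CPM for WT, 202 to 217 for E1-KO, 201 to 213 for E2-KO and 112 to 122 for D-KO. Of 10 fibroblast markers 3 were tested, Fbln1 alone made up most of their sum (142 ± 17 CPM in WT), and Lum and S100a4 were at 0 in all 4 genotypes. The part of these cell types in the levels of the naive factors was not tested.

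For each factor, the gene outside the list with the most similar profile was found by the Pearson correlation of log2 CPM over the 12 libraries, among 9677 genes that averaged 3 or more on the log2 CPM scale. The libraries share their genotype groups and their scaling, so that these values describe profiles only. The closest profile was that of Tbc1d8 for Nanog (r = 0.978), Rdm1 for Klf2 (0.991), St14 for Klf4 (0.991), Neat1 for Klf5 (0.986), Tns1 for Esrrb (0.987), Mb21d2 for Tfcp2l1 (0.978), Sox15 for Tbx3 (0.983), Smg5 for Zfp42 (0.98), Plekha7 for Nr0b1 (0.987) and the pseudogene Ppp4r1l-ps for Prdm14 (0.983). St14, a membrane serine protease, was also the second closest for Nr0b1 (0.984), and averaged 38.9 CPM for WT, 111 for E1-KO, 106 for E2-KO and 73 for D-KO. Tfe3, a transcription factor whose exclusion from the nucleus accompanies the exit from the naive state, was the second closest for Zfp42 (0.979), at 32.8, 52.5, 46.5 and 41.6 CPM.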

How the data were processed

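The authors deposited raw read counts per gene symbol for 12 RNA-seq libraries. The submitters' processing notes name mm10, HISAT2 2.1.0, HTSeq 0.9.1 and DESeq2 1.18.1, without roles, and the sources used here give no annotation or strand setting. Rows that name no gene were dropped (for each counted read there were 1.11 to 1.204 with no feature). The 4C-seq and ChIP-seq samples were not used here. Groups come from the genotype labels. In R 4.3.3 with edgeR 4.0.16, genes were kept by filterByExpr, scaled by TMM and fitted with a robust quasi-likelihood model of 1 mean per genotype over all 12 libraries. The 7 contrasts were Benjamini-Hochberg adjusted over all 16765 genes and called below 0.05. SE is the log2 fold change divided by the root of its F, and SD is over 3 libraries. Alternatives used DESeq2 1.42.0 and limma 3.58.1. Simulated counts, drawn with the same spread per gene in every genotype and no GC trend, were used to test the code of the fit. They cannot show how calls against WT behave with the wider spread of WT. Positions are from GENCODE M21 (GRCm38). The factors and 12 further lists were chosen with earlier results of these data known. Named genes are all factors, up to 3 genes per list with the smallest adjusted p in a comparison with WT, and the 2 most similar profiles. Replicates are called biological by the series, without saying whether cultures were separate, so p-values measure only the spread between these samples. Each factor had at least 127 counts a library, with Prdm14 the lowest. The part of counting noise in the spread between libraries was not tested.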

Additional observations from a re-analysis of the deposited data

Results flagged for a closer look

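For all 10 factors the level in D-KO differed from that given by adding both single differences from WT, by the interaction test in edgeR over all 12 libraries. A difference from WT shared by all deletion lines would give this too, and cannot be told apart from a dependence of one deletion on the other. The interaction on the log2 scale was -0.88 for Nanog, -1.52 for Klf2, -1.64 for Klf4, -1.24 for Klf5, -1.61 for Esrrb, -0.80 for Tfcp2l1, -0.82 for Tbx3, -0.90 for Zfp42, -1.23 for Nr0b1 and -1.85 for Prdm14. Across all genes 35.2% passed the same test. D-KO had a lower mean than E2-KO for each factor (called for Prdm14 alone in the fit of all libraries, against 2.64% of all genes called lower). E1-KO had a higher mean than WT for each factor (called for 9, against 15.7% of all genes called higher).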

How the results depend on the processing

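Of 1170 values of single factors under other settings, 1012 kept direction and call, 73 lost the call, 68 gained it and 17 changed sign, and none of these 17 was called in the fit of all libraries. Tfcp2l1 in E2-KO against WT became 0.01 with library totals, 0.14 with limma voom weights, 0.17 with GC content and length offsets, 0.19 with these and the replicate block, 0.25 with WT replicate 2 alone, and -0.27 to 0.28 leaving out 1 library (0.28, called, when it was WT replicate 3). For D-KO against WT, WT replicate 2 alone turned Klf5 to -0.15 and Tbx3 to -0.10, and Klf5 was -0.07 (WT replicate 3 out) to 0.37 leaving out 1 library. Klf2 became -0.01 in D-KO against E1-KO with library totals, and 0.01 against E2-KO with the offsets, with or without the block. Tbx3 in E1-KO against E2-KO became -0.0046 without the filter, -0.02 with the offsets, with or without the block, -0.0037 without E1-KO replicate 3, and -0.01 (E2-KO replicate 2 out) to 0.02 leaving out 1 library. The cause was not tested.

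Fits of only 2 genotypes called 2552, 2535 and 1438 genes in E1-KO, E2-KO and D-KO against WT (5739, 5919 and 3824 with all libraries), and 5 factors in E2-KO, from fewer samples. With WT replicate 2 alone, a fit that assumes WT to vary like the deletion genotypes, D-KO against WT gave 6238 genes. For D-KO against E1-KO (2674 genes), voom gave 8006, the 2-genotype fit 8025 and WT replicate 2 alone 8030. For D-KO against E2-KO (751 genes, 1 factor), the counts of genes and factors were 1472 and 2 without the filter, 1136 and 5 with DESeq2, 5877 and 10 with voom, 5872 and 10 with the 2-genotype fit, 1423 and 2 with the offsets, 1169 and 2 with offsets and replicate block, and 6158 and 10 with WT replicate 2 alone, and library totals gave 2 factors. For E1-KO against E2-KO (100 genes, 0 factors) they were 415 and 1 without the filter, 249 genes with DESeq2, 2954 and 5 with voom, 3377 and 6 with the 2-genotype fit, 256 with the offsets, 203 with offsets and replicate block, and 3457 and 6 with WT replicate 2 alone.

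Leaving out 1 library in turn gave 9 to 10 factors and 3965 to 8753 genes for E1-KO against WT, 9 to 10 and 3969 to 8887 for E2-KO, 4 to 7 and 2413 to 7006 for D-KO, 4 to 5 and 1174 to 1433 for D-KO against E1-KO, 0 to 0 and 227 to 304 for D-KO against E2-KO, 0 to 0 and 16 to 28 for E1-KO against E2-KO, and 9 to 10 and 4621 to 8673 for the interaction. The highest gene counts against WT (8753, 8887 and 7006) came without WT replicate 2, and leaving out any D-KO library gave 4 factors and at least 2413 genes for D-KO against WT. The replicate numbers did not pair the libraries: deviations of 18 same-numbered pairs correlated at -0.226 to 0.173, and 3 of 12 libraries correlated best with their own number. The replicate block gave 9, 9, 4, 9, 1, 0 and 10 factors over the 7 comparisons in the order of this paragraph. The spread of WT limits the values against WT, and the part of depth was not tested.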
